A study of Mus musculus with 29 samples.

Results

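The methylation of imprinted genes was described in lung DNA from offspring whose dams had been exposed to PM2.5 or saline. A list of 47 imprinted genes was looked up among 260686 windows, each named for the gene it overlapped and each giving 1 %DNAm score per library. In all, 572 windows were named for 36 of the 47 genes. The libraries came from 29 BALB/c mice, described as 13-week-old females, with lung DNA read by enzymatic methyl-sequencing of the whole genome. The lung piece is Lung (RML) in the labels and the right lower lobe in the study's methods. Dams received saline (Sham) or PM2.5 from a Hong Kong roadside (PM), given into the nose before mating and until weaning. Their offspring were sensitised to ovalbumin (OVA) and then nebulised with it to induce allergic airways disease (AAD), while controls were nebulised with saline. The study's methods do not say plainly whether the controls were also sensitised. This gave 7 libraries each of Sham, Sham-OVA and PM and 8 of PM-OVA, and lungs were taken the day after the last OVA. The labels do not give the litters, so offspring in a group may be littermates and p-values then cover the spread between these mice only. BALB/c mice are inbred, so the maternal and paternal alleles could not be told apart by sequence, and the DNA came from whole tissue, where a change in the mix of cells and a change within cells cannot be told apart.

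An imprinted gene is expressed mainly from the copy inherited from 1 parent. Most imprinted clusters are governed by a CpG-rich control region that was methylated in either the egg or the sperm and keeps that methylation on the same parental copy in nearly all cells of the body. Such a region therefore reads at about 50% when both copies are read, whereas most CpG-rich gene starts are unmethylated on both. ZFP57, a zinc-finger protein, binds the methylated sequence TGCCGC and helps to keep the mark in the early embryo.

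The 11 genes with no window of their own were hidden by a neighbour's name. The bodies of 5 of them lay under windows named for another gene of the list. These were Kcnq1ot1 (under Kcnq1), Nnat (Blcap), Peg13 (Trappc9), Mcts2 (H13) and Nap1l5 (Herc3). The other 6 lay under windows of genes not on the list, with Ndn, Magel2 and Mkrn3 under Gm32061, Nespas under Gnasas1, Zrsr1 under Commd1b and Cdh15 under Galnt2l. Most of Commd1 was also named Commd1b. In all, 56 windows over a listed gene carried the name of a gene outside the list, and these are described separately from the 572.

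Windows held about the same number of CpGs (a median of 50), so a short window is a CpG-dense one. Here a window under 1500 bp was called CpG-dense, and a window with a mean over all libraries of 35 to 65% was called intermediate. Both limits were chosen after the levels had been seen. Of the 75 CpG-dense windows of imprinted genes, 35 (46.7%) were intermediate, compared with 2.54% of the 20683 CpG-dense windows of all genes. The typical CpG-dense window was almost unmethylated, with a median of 0.980% over all genes, and 79.6% of them lay under 10%. The 35 intermediate windows lay in 17 genes, so several are neighbours within 1 control region and are not independent of each other. Their means ran from 37.3% to 59.6%, with a median of 44.9%. For longer windows the share was closer to the background, as 80 of 497 (16.1%) were intermediate against 13.4% of all genes.

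**Figure D1:**
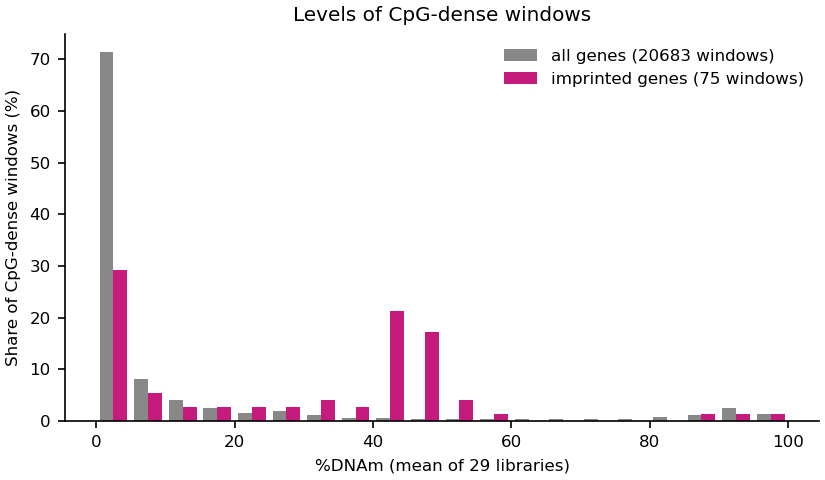
Share of CpG-dense windows (y axis, %) in each 5-point bin of mean %DNAm over the 29 libraries (x axis), for all genes (grey, 20683 windows) and for imprinted genes (magenta, 75 windows). Bins from 40 to 50% hold 21.3% and 17.3% of the windows of imprinted genes and 0.488% and 0.416% of those of all genes.

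Stretches of 6 of these windows are shown because they carry an intermediate mean level together with the ZFP57 motif. The capitals mark TGCCGC or its reverse complement GCGGCA, and each stretch is the 150 bases of its window, outside annotated UTRs, with most motifs. All are the plus strand of GRCm38, written 5′ to 3′, and are the reference sequence from RefSeq's copy of that build.
Inpp5f, chr7:128687900-128688049: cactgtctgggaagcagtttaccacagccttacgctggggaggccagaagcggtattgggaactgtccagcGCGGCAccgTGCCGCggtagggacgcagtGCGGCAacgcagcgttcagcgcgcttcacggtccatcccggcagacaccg
Kcnq1 (Kcnq1ot1), chr7:143295598-143295747: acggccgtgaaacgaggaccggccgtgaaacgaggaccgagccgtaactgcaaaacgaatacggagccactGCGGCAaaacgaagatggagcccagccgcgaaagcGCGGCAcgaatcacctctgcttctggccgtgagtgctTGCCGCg
Mest, chr6:30737603-30737752: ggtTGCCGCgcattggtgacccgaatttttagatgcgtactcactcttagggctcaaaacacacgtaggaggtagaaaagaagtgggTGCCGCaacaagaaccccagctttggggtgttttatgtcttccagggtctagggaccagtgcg
Peg3, chr7:6729636-6729785: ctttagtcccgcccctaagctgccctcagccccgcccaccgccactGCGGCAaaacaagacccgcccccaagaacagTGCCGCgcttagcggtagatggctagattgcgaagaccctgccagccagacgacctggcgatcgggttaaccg
Plagl1, chr10:13091040-13091189: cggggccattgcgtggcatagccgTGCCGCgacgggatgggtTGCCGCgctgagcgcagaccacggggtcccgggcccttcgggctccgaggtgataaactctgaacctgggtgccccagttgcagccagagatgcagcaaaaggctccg
Trappc9 (Peg13), chr15:72809917-72810066: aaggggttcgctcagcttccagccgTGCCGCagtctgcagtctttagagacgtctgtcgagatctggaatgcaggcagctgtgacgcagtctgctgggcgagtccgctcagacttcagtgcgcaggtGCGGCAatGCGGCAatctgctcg

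The motif was common in this set. It was found at least once, on either strand, in 28 of the 35 CpG-dense intermediate windows of imprinted genes (80%), compared with 47% of the 525 such windows of all genes and 44.7% of all CpG-dense windows. Several copies were found in many, with 2 or more motifs in 18 of 35 (51.4%) against 14.9% of the 525. The window at the start of Mest held 8. The start of the CTCF motif, searched as CCGCGNGG on both strands, was present in 8 of the 35 (22.9%), in 18.9% of the 525 and in 28.4% of all CpG-dense windows. A match is only a run of letters and no binding was measured.

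Genes of clusters with a maternally methylated control region held 33 of the 35 windows, not all of which lie in the control region itself. Every window overlapped a gene, so a control region lying between genes was not read, and this limits the split by class. Mest encodes a hydrolase-like protein linked to growth, and its start lay in a window at chr6:30737369-30738232 that held a transcript start, 556 bp of promoter and 183 bp of UTR exon. Its %DNAm was 35 to 54.1 in Sham (median 47.6), 37.3 to 48.7 in Sham-OVA (median 44.4), 36 to 49.9 in PM (median 45.8) and 31.9 to 49.9 in PM-OVA (median 40). The 4 groups overlapped throughout, and the next window, further into the gene, had a mean of 42.5%. Peg3, a zinc-finger gene expressed from the paternal copy, shares its start with Usp29. The window over both starts (chr7:6729846-6730845) had medians of 45.2% in Sham, 46.3% in Sham-OVA, 46.1% in PM and 44.4% in PM-OVA, with a range of 34.1 to 53.9% over all libraries. The retrotransposon-derived Peg10 had 3 neighbouring windows with means of 42.5%, 41.5% and 44.4%, and the 2097-bp window of its divergent neighbour Sgce, a sarcoglycan gene, had a mean of 47.2%.

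The Gnas locus, which encodes the stimulatory G protein alpha subunit and several alternative first exons, gave the longest run. It had 9 CpG-dense intermediate windows in 2 stretches, 6 of them at chr2:174295729-174301054 (means 45.0 to 49.7%) and 3 at chr2:174327361-174329228 (means 41.4, 42.9 and 38.8%). Between and beyond these stretches the same gene had CpG-dense windows as low as 0.177%. A further 4 such windows over Nespas, the antisense RNA of the locus, were named Gnasas1 and had means of 44.4, 43.6, 45.9 and 48.8%. The first Gnas window was among the steadiest, at 40.1 to 54.2% in Sham and 42.7 to 52.4% in PM-OVA.

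Several control regions lie inside a host gene. Kcnq1ot1, the RNA that silences part of the Kcnq1 cluster, is read from within Kcnq1, a potassium channel gene. The window at chr7:143295576-143296294, within Kcnq1ot1 and close to its start, had a median of 47.4% in Sham, 49.7% in Sham-OVA, 41.5% in PM and 46.1% in PM-OVA. Single libraries there ran from 30.2% to 56.4%, and all groups overlapped. Peg13 lies within Trappc9 and its window (chr15:72809229-72810083) had a mean of 46.7%. Nnat, a neuronal proteolipid gene within Blcap, had 2 windows with transcript starts at 44.0% and 55.0%. Nap1l5 within Herc3 had a mean of 54.2%, and a promoter window inside Inpp5f, a phosphoinositide phosphatase, had 49.1%. At Airn, the RNA that silences Igf2r, the window just inside its start, in an Igf2r intron, had a mean of 43.4% but the widest spread of the set, with an SD within groups of 10.4 points.

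Plagl1, a zinc-finger regulator of growth, had 2 adjoining windows at its imprinted start (chr10:13090044-13091760) with means of 46.9% and 42.2%. Grb10, an adaptor that restrains insulin signalling, had 45.0% and 41.9% in adjoining windows at an internal start, while windows at its upstream start were as low as 1.59%. The 2 windows at an internal start of Impact, a translational regulator, lay at 40.2% and 40.6%, and the window within Slc38a4, an amino acid transporter, lay at 47.6%. Among the names outside the list, Commd1b held the start of Zrsr1, a splicing factor gene, in windows of 47.5% and 44.8%. The long windows named Snrpn, a spliceosomal gene of the Prader-Willi region, were 39.4 to 73.3% and none was CpG-dense. The 1533-bp window over the start that Snrpn shares with Snurf (chr7:60003654-60005186) was named Gm38393. It held 9 ZFP57 motifs, its mean was 47.6%, and every library lay from 39.9 to 57.9%. It differed after OVA by 0.846 points in Sham (adjusted p = 0.8) and −1.69 points in PM (adjusted p = 0.559).

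The next genes were classed with a paternally methylated region, which need not be a germline control region or lie under these windows. Of them, H19, a growth-restraining RNA, had a 1661-bp window over its start and body (chr7:142577012-142578672). Its medians were 49.2% in Sham, 51.6% in Sham-OVA, 51.5% in PM and 51.6% in PM-OVA. Its libraries ran from 40.5% to 60.9%. At Meg3, an RNA expressed from the maternal copy, 2 windows over the start had means of 54.0% and 47.4%. An exonic window of Dlk1, a Notch-related ligand, had 52.4%. Zdbf2, a zinc-finger gene expressed from the paternal copy, had 43.5% in a window that was exonic throughout. Rasgrf1, an exchange factor for Ras, had a single CpG-dense window, at 1.89%. The CpG-dense windows of Igf2, the growth factor, lay at 0.971 to 4.27%, and those of Rtl1, a retrotransposon-derived placental gene, at 95.2% and 94.6%. The RNA genes Rian and Mirg had no CpG-dense window, and their windows lay at 55.4 to 86.8% and 47.2 to 90%.

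Neighbours without a germline control region of their own had no intermediate CpG-dense window under their own names. The 3 CpG-dense windows of Ascl2, a trophoblast regulator, and the 2 of Phlda2, a placental growth restrainer, had means of 0.314 to 12.4%. The 5 CpG-dense windows of Cdkn1c, a cell cycle inhibitor, lay at 19.6 to 32.0%, and those of Peg12 at 19.6% and 26.5%. Ube3a, a ubiquitin ligase gene, and Ddc, an amino acid decarboxylase gene, had windows at 85.6 to 92.8% and 45.8 to 82.4%, none of them CpG-dense. None of the 39 windows named for genes of this class was both CpG-dense and intermediate, but the window over the start of Magel2, named Gm32061, was both, with a mean of 38.3%. A further list of 30 other imprinted genes, kept apart from the genes described above, had 27 CpG-dense windows, of which 0 were intermediate. Whether those genes have a control region of their own was not tested.

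**Figure D2:**
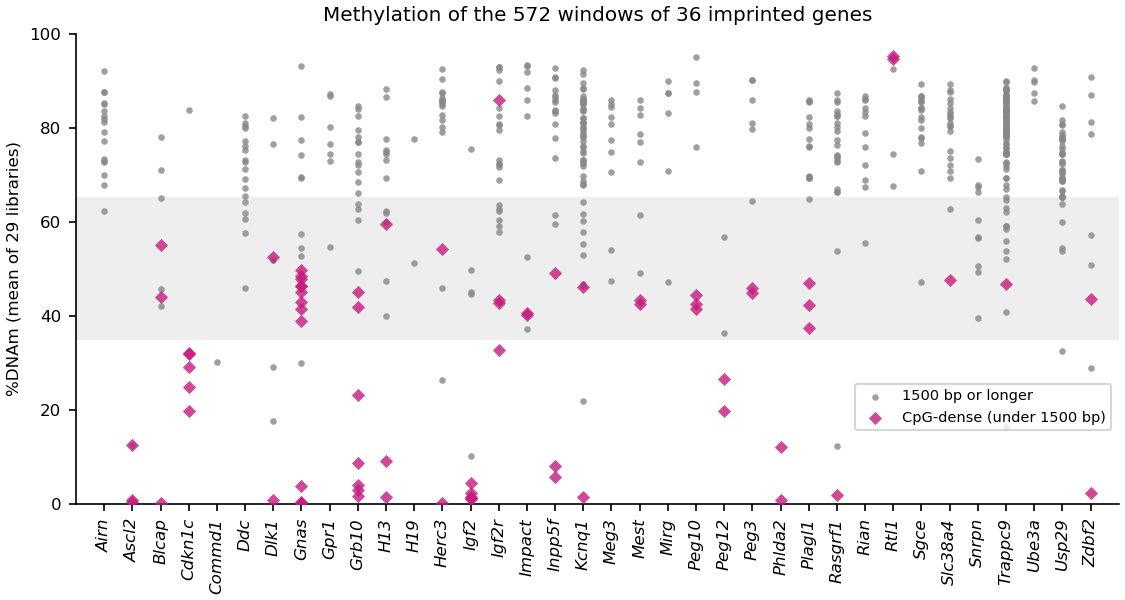
Mean %DNAm over the 29 libraries (y axis) of each of the 572 windows, by gene (x axis), with CpG-dense windows as magenta diamonds, longer windows as grey points and the band from 35 to 65% shaded. The 35 diamonds in the shaded band belong to 17 genes, and those of Igf2 lie near 0.

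A stricter rule asked that every library lie from 35 to 65%, with a value in at least 27 libraries. It was met by 55 of the 572 windows (9.62%), in 26 genes, compared with 7.06% of all windows, which is near the background. Most of the 55 were long, with a median of 3388 bp, and their median SD within groups was 2.36 points against 1.68 for all windows that met the rule. Only 5 were CpG-dense, namely those of Gnas (48.5%), Peg3 (45.9%), Inpp5f (49.1%), Dlk1 (52.4%) and Peg13 (46.7%). The other 30 CpG-dense intermediate windows had 1 or more libraries outside the band, and in the Plagl1 upstream window all 7 Sham libraries lay below it (22.9 to 33.4%). The spread was larger than usual in the CpG-dense set, as the SD within groups over the 35 windows had a median of 5.97 points, against 3.98 for the 525 such windows of all genes and 1.57 for all windows of imprinted genes. Coverage was not in the table, so the part of read depth in this spread was not tested.

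**Figure D3:**
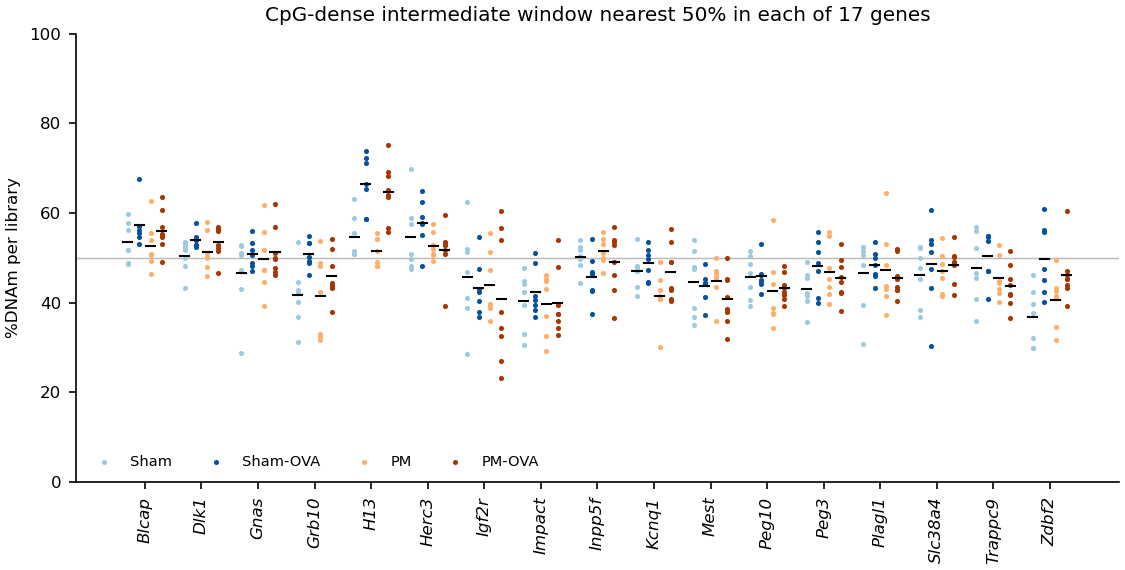
%DNAm of each library (points) and group means (black lines) on the y axis, for the CpG-dense intermediate window nearest 50% in each of 17 genes (x axis), coloured by group (7 Sham, 7 Sham-OVA, 7 PM and 8 PM-OVA). Challenged and unchallenged libraries overlap in every gene shown except H13, where the 8 PM-OVA libraries lie above the 7 PM libraries.

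The question of whether OVA moved these levels was addressed with limma's moderated test over all tested windows, with Benjamini-Hochberg adjusted p-values. Few of the CpG-dense intermediate windows passed the test. In Sham offspring, 4 of the 35 CpG-dense intermediate windows (11.4%) had an adjusted p under 0.05, compared with 52.1% of those of all genes. In PM offspring it was 2 of 35 (5.71%) against 41.8%. The PM count depended on single libraries, with 5 called without PM-OVA replicate 1 and 4 without PM replicate 6 or PM replicate 7. The mean over all libraries includes the challenged ones, and the Plagl1 upstream window, called in both arms, entered the set only through them. With the band set on the mean of the Sham and PM libraries alone, 3 of 34 windows were called in Sham and 1 of 34 in PM, against 247 and 198 of 488 for all genes. That band still shares the unchallenged libraries with the test, so all these counts are given as a description. The size of the differences was also smaller, with a median absolute difference of 2.71 points in Sham and 2.29 points in PM, against 5.29 and 3.43 points for all genes. The spread between mice was wider in the windows of imprinted genes, as given above, and its part in the lower count was not tested. The mean over the 35 windows was 39.9 to 48% in Sham (median 44.9), 45.6 to 49.1% in Sham-OVA (median 48.2), 42.3 to 47.5% in PM (median 44.4) and 43.2 to 47.7% in PM-OVA (median 45.4), so the groups overlapped. A p above the threshold does not show that OVA left a window untouched. For Mest the interval of the difference (95%, on the percent scale) was −6.58 to 4.78 points in Sham and −9.68 to 1.32 points in PM. For the window over the starts of Peg3 and Usp29 it was −5.29 to 4.22 and −4.80 to 4.41 points, and for the Kcnq1ot1 window −3.40 to 6.84 and 0.458 to 10.4 points.

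The 4 windows called in Sham all rose. They were the Plagl1 upstream window, the H13 window that holds Mcts2, the Zdbf2 exon and 1 Grb10 window, and the first 2 of these were also the ones called in PM. At Grb10, %DNAm was 31.3 to 53.6 in Sham (median 42.1) and 46.2 to 54.8 in Sham-OVA (median 50.3), a rise of 9.24 points (adjusted p = 0.0270). In PM the same window went from a median of 42.5% to 44.2%, a difference of 4.45 points (adjusted p = 0.238). The next 2 Grb10 windows, which hold transcript starts, differed by 4.12 and −1.03 points in Sham, with adjusted p of 0.477 and 0.856. The rise thus passed the test in 1 of 3 neighbouring windows.

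Over all 572 windows, 81 (14.2%) rose and 118 (20.6%) fell in Sham after OVA, compared with 13.3% and 22.3% of all windows. In PM, 51 (8.92%) rose and 181 (31.6%) fell, compared with 9.26% and 34.8%. These shares lie near the background. All windows together were shifted downward, by a median of 0.414 points in Sham and 1.03 points in PM, and the split of the calls depended on that shift. With each library centred on its own median, 104 rose and 88 fell in Sham, and 109 rose and 106 fell in PM. Sham replicate 1 stood apart, with a value in 1224 of 1230 windows of the Y chromosome against 29 to 46 in the other libraries. Without it, 183 windows of imprinted genes were called in Sham and 232 in PM, where 199 and 232 were called with it.

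Windows that passed the test (0.05) and differed by 10 points or more were taken as DMRs, and they were 9 of 572 in Sham (1.57%) against a background of 0.775%. In PM they were 5 of 572 (0.874%) against 0.584%. All 5 were among the 9, each with the same sign, and 8 of the 9 rose. At the study's stricter threshold for the adjusted p (1e-06), 1 of the 9 and 2 of the 5 passed, namely the Trappc9 intron in both arms and the last H13 window in PM. The same numbers of DMRs were found without Sham replicate 1. Markers of other cells moved beside them, since 17 of 104 windows of 15 leucocyte genes were DMRs with lower %DNAm in Sham-OVA and 16 in PM-OVA, where 0.296% and 0.321% of all windows were. A single leucocyte window was a rising DMR in each arm. Of the 104 leucocyte windows, 23 (22.1%) rose and 43 (41.3%) fell in Sham, where 13.3% of all windows rose and 22.3% fell, and 19 (18.3%) rose and 49 (47.1%) fell in PM, against 9.26% and 34.8%. Of 114 windows of lung structural genes, 45 (39.5%) rose and 16 (14%) fell in Sham, and 29 (25.4%) rose and 22 (19.3%) fell in PM. Of these, 3 in Sham and 1 in PM were rising DMRs, and 1 in each arm was a falling DMR. The mean over the leucocyte windows was 68.1 to 69.1% in Sham, 65.6 to 67.1% in Sham-OVA, 68.3 to 69.5% in PM and 65.7 to 66.5% in PM-OVA. The mean over the windows of 15 lung structural genes was 61.8 to 63.7% in Sham, 63.2 to 65.1% in Sham-OVA, 62.1 to 64.4% in PM and 62.8 to 64.5% in PM-OVA. The part of cell mix in the results was not tested.

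**Figure D4:**
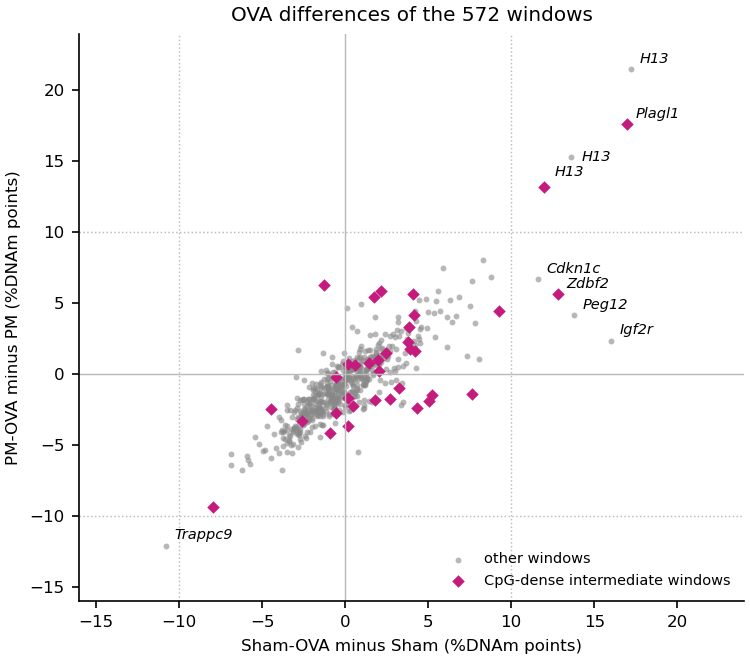
Difference after OVA in Sham (x axis, Sham-OVA minus Sham) and in PM (y axis, PM-OVA minus PM), in %DNAm points, for the 572 windows, with CpG-dense intermediate windows as magenta diamonds and dotted lines at 10 points. The 9 named DMRs stand at the edges, with 3 H13 windows and Plagl1 above 10 points on both axes and Trappc9 under −10 on both.

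H13, which encodes a signal peptide peptidase, had 3 DMRs, and all 3 rose in both kinds of offspring. The first (chr2:152686979-152688457) holds the start of Mcts2, a retrogene within an H13 intron whose start serves as the control region of the pair. Its %DNAm was 50.9 to 63.1 in Sham (median 51.6), 58.6 to 73.9 in Sham-OVA (median 66.4), 48.2 to 55.5 in PM (median 51.5) and 55.8 to 75.3 in PM-OVA (median 64.6). The level started near 50% without OVA and was higher with it, by 12 points in Sham (adjusted p = 0.00109) and 13.2 points in PM (adjusted p = 0.000267). The groups did not overlap in PM, while 5 of 7 Sham-OVA libraries were above every Sham library.

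The other 2 H13 windows adjoin each other at the 3′ end of the gene. The window at chr2:152705241-152707639, all of it 3′ UTR or last exon in the annotation, had medians of 54.7% in Sham, 70.9% in Sham-OVA, 54.1% in PM and 70.3% in PM-OVA. The window at chr2:152707648-152709208, which runs past the annotated end, was 23.7 to 39.1% in Sham, 40.3 to 55.7% in Sham-OVA, 25.3 to 35.3% in PM and 43.0 to 64.2% in PM-OVA. Both windows separated challenged from unchallenged libraries without overlap in both arms. The last window rose by 17.2 points in Sham (adjusted p = 1.89e-05) and by 21.5 points in PM (adjusted p = 4.4e-07), the largest rise among the 572 windows in either arm. The window just before that of Mcts2 (chr2:152685015-152686971) rose by 7.5 points in Sham (adjusted p = 0.00812) and differed by 4.77 points in PM (adjusted p = 0.0573). The CpG-dense windows at the upstream start of H13 had means of 9.2 and 1.53% in Sham and 9.2 and 1.09% in Sham-OVA.

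Plagl1 had a DMR at its upstream end and none at its imprinted start. The moved window (chr10:13060738-13061587) has its midpoint 0.66 kb from the annotated gene start, against 30 and 30.86 kb for the imprinted start, includes 122 bases of 5′ UTR exon, and held no ZFP57 motif. A stretch of it is shown for comparison with the sequences above. It is the 150 bases outside UTRs with most CpGs, and it has no capitals because the motif is absent.
Plagl1 upstream window, chr10:13060968-13061117: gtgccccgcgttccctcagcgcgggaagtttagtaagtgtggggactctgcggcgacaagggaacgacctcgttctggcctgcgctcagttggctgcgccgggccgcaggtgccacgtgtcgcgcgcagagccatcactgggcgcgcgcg

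In that window %DNAm was 22.9 to 33.4 in Sham (median 29.1), 35.2 to 52.3 in Sham-OVA (median 44.5), 22.3 to 37.1 in PM (median 26.4) and 33.2 to 54.8 in PM-OVA (median 46). All 7 Sham-OVA libraries were above every Sham library, and 7 of 8 PM-OVA libraries were above every PM library. %DNAm rose by 17 points in Sham (adjusted p = 4.59e-05) and 17.6 points in PM (adjusted p = 1.1e-05). At the imprinted start, the 2 windows differed by 1.78 and 1.42 points in Sham and −1.80 and 0.742 points in PM, with adjusted p of 0.689, 0.753, 0.680 and 0.869. The mean of the upstream window was 28.6% in Sham and 45.6% in Sham-OVA. The window directly before it (chr10:13056013-13060737) moved the other way and fell by 4.96 points in Sham (adjusted p = 0.0106) and by 5.41 points in PM (adjusted p = 0.00321).

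**Figure D5:**
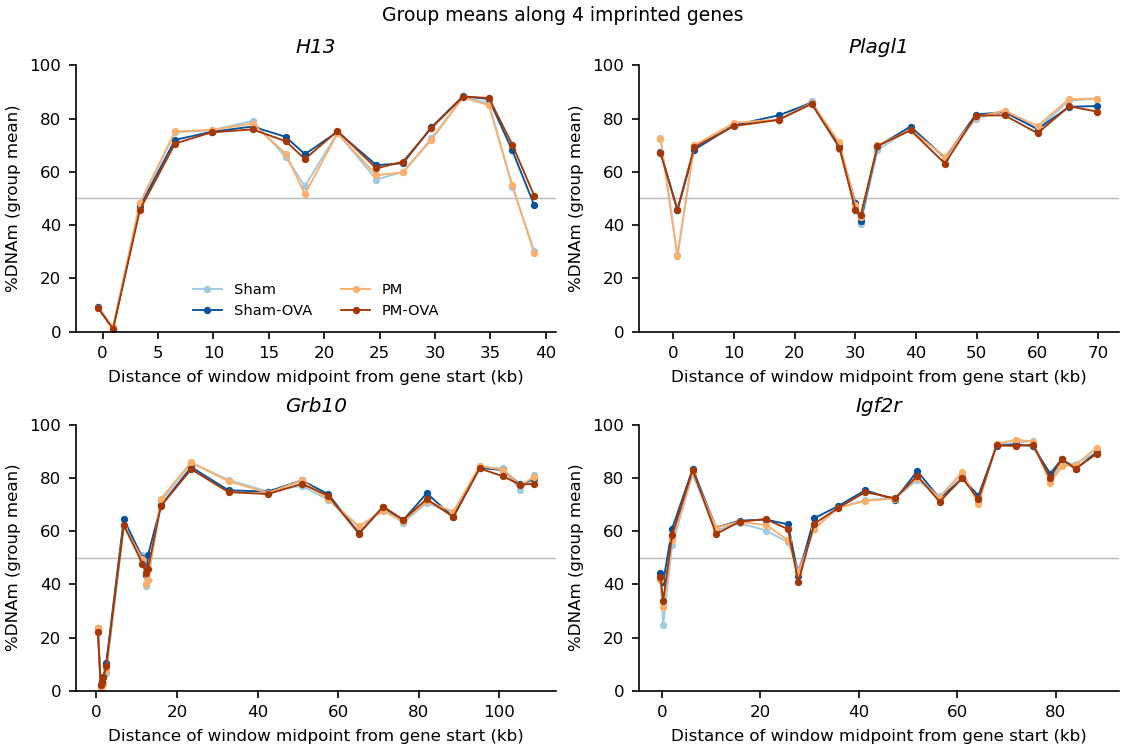
Group mean %DNAm (y axis) of the windows of H13, Plagl1, Grb10 and Igf2r by the distance of the window's midpoint from the gene's annotated start (x axis, kb, in the direction of transcription), with 1 line per group. Challenged lines lie over 10 points above unchallenged ones in both Sham and PM at 18.26, 36.98 and 38.97 kb in H13 and at 0.66 kb in Plagl1, while at 0.23 kb in Igf2r the group means are 24.7% in Sham, 40.7% in Sham-OVA, 31.3% in PM and 33.7% in PM-OVA. Smaller gaps are seen at 16.53 kb in H13, at 12.82 kb in Grb10 and, in the other direction, at −2.13 kb in Plagl1, and the lines lie together at the imprinted start of Plagl1 near 30 kb.

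The remaining DMR found in both arms was the only one that fell. It lies in an intron of Trappc9, a trafficking protein gene, at chr15:72864490-72867734, which is 3245 bp long. Its %DNAm was 61.5 to 66.3 in Sham (median 64.6), 49.7 to 55.3 in Sham-OVA (median 53.2), 60.1 to 69.1 in PM (median 64.3) and 50.3 to 55.4 in PM-OVA (median 53.2). No challenged library overlapped an unchallenged one. %DNAm changed by −10.8 points in Sham (adjusted p = 2.14e-07) and −12.1 points in PM (adjusted p = 1.3e-08). Other windows of Trappc9 and Kcnq1 also fell, by smaller amounts, with −5.90 and −5.78 points at chr15:72926928-72930084 and −6.85 and −6.40 points at the 3′ end of Kcnq1. An intronic window of Rasgrf1 (chr9:89985948-89991425) fell by 6.21 points in Sham (adjusted p = 1.19e-05) and by 6.79 points in PM (adjusted p = 1.36e-06).

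Windows of 4 genes were DMRs in Sham alone, and all rose. Igf2r, the receptor that clears IGF2, had a 326-bp window just inside its start (chr17:12769267-12769592) with 13.8 to 31.3% in Sham, 31.4 to 56.1% in Sham-OVA, 25.2 to 41.3% in PM and 21.8 to 40.2% in PM-OVA. Sham-OVA lay wholly above Sham, whereas PM and PM-OVA overlapped. The rise was 16 points in Sham (adjusted p = 0.000294) and 2.35 points in PM (adjusted p = 0.583). The rise differed between the arms by −13.6 points, and that difference had an adjusted p of 0.567, so a difference between kinds of offspring was not shown. The next window, which covers the Igf2r start itself, had a mean of 42.6% and differed by 1.98 points in Sham and 0.975 points in PM.

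The Zdbf2 exon (chr1:63309495-63310407) was 30 to 46.2% in Sham and 40.1 to 60.9% in Sham-OVA, with a rise of 12.8 points (adjusted p = 0.00314) against 5.66 points in PM (adjusted p = 0.151). Peg12, an intronless gene of the Prader-Willi region, rose from a median of 14.5% to 26.7% in its coding exon (chr7:62463928-62464320), by 13.8 points in Sham (adjusted p = 0.00207) against 4.15 points in PM (adjusted p = 0.258). Challenged and unchallenged libraries overlapped at both genes in each arm. At Cdkn1c a window near the 3′ end of the gene with an annotated internal start (chr7:143458769-143459362) was 22.7 to 32.3% in Sham and 35 to 43.1% in Sham-OVA, without overlap, and rose by 11.6 points (adjusted p = 0.000118). In PM the Cdkn1c window also rose, by 6.71 points (adjusted p = 0.00723), which was under the 10-point limit. The interaction tests for Zdbf2, Peg12 and Cdkn1c gave adjusted p of 0.739, 0.686 and 0.742.

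Smaller rises were seen at the Dlk1 locus. The window near the 5′ end of Dlk1 (chr12:109453605-109455144) rose by 8.27 points in Sham (adjusted p = 0.000495) and 8.07 points in PM (adjusted p = 0.00041). The next Dlk1 window, at 51.8% on average, rose by 5.35 and 4.32 points (adjusted p = 0.00561 and 0.0153). Mirg, a microRNA host RNA at the far end of the same cluster, rose by 4.97 and 4.4 points in a window at 47.2% (adjusted p = 0.000845 and 0.00148). The Meg3 window at 47.4% differed by 0.952 and 4.93 points (adjusted p = 0.804 and 0.103), and the H19 window by 1.84 and 1.43 points (adjusted p = 0.605 and 0.668). Airn had a 5124-bp window with a mean of 62.2% that rose by 8.80 and 6.87 points (adjusted p = 5.25e-06 and 5.52e-05).

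Of the 55 windows with every library from 35 to 65%, 15 (27.3%) were called for OVA in Sham (8 rose and 7 fell), against 32.3% of all windows that met the rule, and 14 (25.5%) in PM (7 rose and 7 fell), against 35.2%, all of them with differences under 10 points. The rule itself limits how far apart 2 groups can lie, so these counts describe the windows only. Among the 56 windows named for genes outside the list, 17 (30.4%) were called in Sham and 20 (35.7%) in PM, against 35.6% and 44.1% of all windows, and 0 were DMRs. The window over the start of Magel2, a ubiquitin ligase regulator, was named Gm32061 and rose by 7.51 points in Sham without overlap (adjusted p = 0.000411), with medians of 34.7% and 41.3%, against 2.66 points in PM (adjusted p = 0.149). Of the 3 windows over Zrsr1, all named Commd1b, the one at 47.5% differed by −6.44 points in Sham (adjusted p = 0.109) and 2.47 points in PM (adjusted p = 0.522). The one at 44.8% differed by 0.769 and −1.03 points (adjusted p = 0.889 and 0.859), and the one at 58.5% by 1.57 and −1.13 points (adjusted p = 0.366 and 0.491).

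Maternal exposure was tested in the same way. No window of an imprinted gene had an adjusted p under 0.05 for PM without OVA, PM with OVA, PM averaged over OVA or the interaction. Among all windows, 0% were called in each of these comparisons. At an unadjusted p under 0.05, PM without OVA had 27 of 572 windows (4.72%) against 5.79% of all windows. PM with OVA had 36 (6.29%) against 5.96%. The interaction had 38 (6.64%) against 7.4%, and PM averaged over OVA had 22 (3.85%) against 4.24%. All 4 shares lie near the background.

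Among the CpG-dense intermediate windows, the median absolute difference came to 1.32 points for PM without OVA, against 1.46 points for such windows of all genes, and to 2.68 points for PM with OVA, against 1.24 points. The median difference for PM with OVA was −2.35 points, against −0.849 points. At an unadjusted p under 0.05 there were 1 and 3 of the 35 windows (2.86% and 8.57%), against 4.98% and 5.56%. The largest was 5.75 and 8.18 points respectively, with smallest adjusted p of 0.847 and 0.821. The windows of imprinted genes with the smallest p were outside this set in each comparison. For PM without OVA it was an Slc38a4 window (chr15:97010571-97013880) at 84.6 to 87.1% in Sham and 86.4 to 90.2% in PM, a difference of 2.26 points (adjusted p = 0.805). For PM with OVA it was a Grb10 window (chr11:11935190-11940513) at 81.2 to 85.0% in Sham-OVA and 78.4 to 82.6% in PM-OVA, a difference of −2.26 points (adjusted p = 0.805). For PM averaged over OVA it was a Cdkn1c window (chr7:143460263-143460751), 5.71 points lower in PM offspring, with an interval of −9.43 to −1.99 points (adjusted p = 1). In each case the groups overlapped.

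The smallest p for the interaction was at Gpr1, a chemerin receptor gene beside Zdbf2, in an intronic window (chr1:63188457-63192698). Its %DNAm was 75.1 to 77.0 in Sham, 80.4 to 86.3 in Sham-OVA, 76.6 to 84.3 in PM and 79.0 to 83.9 in PM-OVA. OVA raised it by 7.31 points in Sham (adjusted p = 6.78e-06) and the difference in PM was 1.24 points (adjusted p = 0.364). The interaction was −6.07 points, with an adjusted p of 0.536.

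Genes listed as setting or keeping imprints were looked up as well. The list had 20 genes such as DNA methyltransferases and their partners, also held the Tet genes of demethylation, and had 276 windows. In Sham, 54 of these (19.6%) rose and 31 (11.2%) fell after OVA, beside 13.3% and 22.3% of all windows. In Sham 2 were DMRs (0.725%), near the 0.775% of all windows. In PM, 37 (13.4%) rose and 56 (20.3%) fell, beside 9.26% and 34.8%, and 0 were DMRs, where 0.584% of all windows were. The list of 30 other imprinted genes had 410 windows, of which 39 (9.51%) rose and 99 (24.1%) fell in Sham, and 23 (5.61%) rose and 168 (41%) fell in PM. In this list 0 were DMRs in Sham, beside 0.775% of all windows, and 1 (0.244%) in PM, beside 0.584%. Over the 572 windows, the median difference came to −0.283 in Sham and −0.938 points in PM, beside −0.414 and −1.03 points over all windows.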

How the data were processed

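Whole-genome enzymatic methyl-sequencing of lung DNA was analysed from 1 deposited file, in which the authors gave a percent methylation per window and library. Per the study's methods, reads were trimmed with Trim Galore, mapped to GRCm38 and called with DRAGEN, and summarised with SeqMonk as the mean over the CpG cytosines of a window. The study's methods report coverage of the genome per replicate, but none was given per window. The depth behind each percent is therefore unknown and precision rests on the number of libraries. Averages over CpGs give shallow and deep sites the same weight. Replicates were separate mice and were not pooled by the authors. The study's count test could not be run on percentages.

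Percentages were transformed to log2((percent + 1)/(101 − percent)), and the 4 groups were fitted to all 29 libraries with limma 3.58.1 (R 4.3.3, data.table version 1.17.8) in 259167 windows with at least 3 values per group. All p-values are 2-sided and Benjamini-Hochberg adjusted over those windows. Differences are those of group means in percentage points, and intervals (95%) come from the same fit on the percent scale. The code was tested on simulated data. Exons, UTRs and gene starts came from GENCODE M21 on GRCm38, with promoters as 2000 bp before a gene start, and sequences from RefSeq's GRCm38. Windows were described with Python 3.11.15, numpy 2.4.6 and pandas 2.3.3.

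The genes, lists and tests were chosen with earlier results of these data known. Named windows were the one nearest 50% in each gene, every DMR, the 5 largest rises and falls among called windows, and, for comparisons without a call, the window of lowest p. The CpG-dense class, with the windows named from it, was added after the values were seen. Alternatives were another pseudocount (5), the percent scale, a threshold of 1e-06, a minimum difference of 5 points, centred libraries, complete windows, a prior variance by level, the replicate block, leaving out each library, and other bands and lengths.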

Additional observations from a re-analysis of the deposited data

Results flagged for a closer look

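In a group of 7 or 8 mice, a single library was set apart where its gap to the nearest other exceeded Dixon's limit for that group size. Of 224 groups examined over 56 windows, 18 (8.04%) had such a library, and chance gives about 1 in 20. At Zdbf2, window 8, PM-OVA replicate 7 had 60.4% with the nearest other library at 47% and a group median of 45.2%. PM-OVA replicate 7 stood at 41.9% in H13, window 3, where the nearest other library had 44.9% and the group median was 46.4%. In Gnas, window 2, the value of Sham replicate 2 was 28.9%, against 43.1% in the closest library of its group and a median of 50.7%. At Peg10, window 3, Sham-OVA replicate 5 had 53.2% with the nearest other library at 46.5% and a group median of 45.1%. PM-OVA replicate 5 stood at 39.2% in Herc3, window 16, where the nearest other library had 50.9% and the group median was 52.8%. In Usp29, window 5, the value of PM replicate 5 was 74.4%, against 76.5% in the closest library of its group and a median of 77.2%. At Usp29, window 5, PM-OVA replicate 3 had 74.1% with the nearest other library at 70.8% and a group median of 70.2%. Sham-OVA replicate 4 stood at 64.5% in Peg12, window 1, where the nearest other library had 57.7% and the group median was 57.1%. In Igf2, window 3, the value of Sham replicate 3 was 54.6%, against 49.7% in the closest library of its group and a median of 48.8%. At Kcnq1, window 28, Sham replicate 2 had 63.9% with the nearest other library at 56.1% and a group median of 54.6%. Sham replicate 4 stood at 45.5% in Cdkn1c, window 5, where the nearest other library had 34.2% and the group median was 32.1%. In Phlda2, window 2, the value of Sham replicate 1 was 7.21%, against 10.3% in the closest library of its group and a median of 11.3%. At Plagl1, window 2, PM-OVA replicate 4 had 33.2% with the nearest other library at 44.9% and a group median of 46%. PM replicate 3 stood at 43.6% in Ddc, window 6, where the nearest other library had 46% and the group median was 46.8%. In Grb10, window 18, the value of PM-OVA replicate 3 was 62.6%, against 49.9% in the closest library of its group and a median of 47.4%. At Dlk1, window 4, PM replicate 1 had 55.3% with the nearest other library at 50% and a group median of 49.4%. Sham-OVA replicate 4 stood at 64.9% in Trappc9, window 65, where the nearest other library had 60.9% and the group median was 60.1%. In Trappc9, window 75, the value of Sham-OVA replicate 7 was 50.4%, against 52.7% in the closest library of its group and a median of 53.8%. Explanations were not tested.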

How the results depend on the processing

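The 9 DMRs of imprinted genes in Sham and 5 in PM were found in the same numbers with a pseudocount of 5, on the percent scale, with centred libraries, with complete windows and with a prior variance by level. At the study's threshold of 1e-06 they fell to 1 and 2, and the windows called fell from 199 to 3 in Sham, from 232 to 6 in PM and from 307 to 49 for OVA averaged over dams, because fewer windows pass a stricter limit. With a minimum difference of 5 points, DMRs numbered 37 in Sham, 33 in PM and 37 averaged over dams, where the main count was 5. The counts at 1e-06 and at 5 points are given without the share over all windows, so they describe the listed genes only. Leaving out 1 library gave 9 to 10 DMRs in Sham and 5 to 6 in PM, and 5 to 6 averaged over dams, with 170 to 206, 214 to 236 and 293 to 309 windows called.

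No window of an imprinted gene was called for PM without OVA, PM with OVA, PM averaged over OVA or the interaction under any of these alternatives. Windows with every library near 50% numbered 21 from 40 to 60% and 102 from 30 to 70%, against 55, and 55 to 57 without 1 library. The share of all windows in these other bands is not given beside them. Of the CpG-dense intermediate windows, those called for OVA in Sham ranged from 3 to 4 without 1 library, and 0 passed 1e-06. They numbered 5 under 2000 bp (11.6%, against 47.9% for all genes) and 6 in the band from 30 to 70% (15.8%, against 47.2%). Those called in PM were 2, with 1 under 1000 bp (3.85%, against 40.1% for all genes) and 1 in the band from 40 to 60% (3.03%, against 43.4%). With the band set on the unchallenged libraries 1 was called (2.94%, against 40.6%). In PM, 3 of 43 were called under 2000 bp (6.98%, against 41.6%) and 3 of 38 in the band from 30 to 70% (7.89%, against 37%). At 1e-06 the PM count was 0. Without 1 library it was 2 to 5 (5 without PM-OVA replicate 1, and 4 without PM replicate 6 or PM replicate 7), and the cause was not tested.

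Replicate numbers are shared between groups. Deviations of same-numbered libraries correlated with r −0.0705 to 0.13 (median 0.0174, 42 pairs) and those of other pairs with a median r of −0.00214 (273 pairs), and 9 of 29 libraries correlated best with their own number. Nothing in the labels says that a number marks a shared litter or batch and not every same-numbered pair exceeded 0.1, so the libraries were analysed as unpaired. The count of best matches expected by chance was not computed. Pairing by the numbers in the library names was not tested, so the check cannot decide whether libraries were paired. With the replicate block, 202 windows were called in Sham and 222 in PM, with 9 and 5 DMRs. No single window named as a DMR changed sign under any alternative. Coverage per window was not given, so what depth limits could not be assessed.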
